A study of Rattus norvegicus with 12 samples.

Results

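The genes described here are 9 that phagocytes use to digest what they take up or that are known from the reaction to implanted material: the secreted ligand Spp1 (ENSMUSG00000029304.15), the lectin Lgals3 (ENSMUSG00000050335.18), the membrane glycoprotein Gpnmb (ENSMUSG00000029816.11), the lysosomal proteases Ctsd (ENSMUSG00000007891.17), Ctsb (ENSMUSG00000021939.9), Ctss (ENSMUSG00000038642.11) and Ctsk (ENSMUSG00000028111.5), and the lysosomal membrane proteins Lamp1 (ENSMUSG00000031447.8) and Cd63 (ENSMUSG00000025351.15). They were taken by identifier from the 56953 genes in the count tables. Of the 9, 7 had enough reads to be tested, among 10450 genes tested in all. Spp1 and Ctss did not, and only their counts are given.

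A macrophage that takes up particles, dead cells or foreign material delivers them to lysosomes, acidic compartments whose membrane is lined by Lamp1 and Cd63 and whose lumen holds cathepsin proteases. When the material is too large to be engulfed, macrophages gather at its surface, may fuse into giant cells and secrete factors such as osteopontin, the product of Spp1, and galectin-3, the product of Lgals3. Many lysosome genes are switched on together by the related transcription factors TFEB, TFE3 and MITF, which bind short DNA motifs called the E-box and the M-box. Muscle fibres, fibroblasts and endothelial cells also have lysosomes, so Lamp1, Cd63, Ctsb and Ctsd are not restricted to phagocytes.

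Bulk RNA-seq was made from back or leg muscle of Long-Evans rats, an outbred laboratory strain, at the site of surgery. All 12 samples carry the genotype label WT (Long-Evans), and the labels give treatment as MFIT (injection of a magnetic fluid) or NT (no treatment or sham surgery), with 3 replicates for each muscle and treatment. The count columns carry instead the muscle name with a code, ST or WT, and a number from 1 to 3. Nothing in the sources used here ties either code to MFIT or NT, so ST and WT are used below only as names of columns, and a difference between them has no treatment direction. The 4 sets of 3 columns are called back ST, back WT, leg ST and leg WT. The series names days 7 and 14 after surgery, the sample labels give no day, and each muscle came as a table of its own, so muscle, day and table cannot be told apart. The labels used here state neither age nor pooling of animals. The p-values measure the spread between columns whose separate origin rests on the replicate labels.

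The columns held 3329994 to 7164682 reads assigned to genes, 30.3% to 36.4% of all reads, while 52.4% to 61.2% of reads were unmapped. The gene identifiers are those of mouse although the tissue is labelled as rat. A gene's level was therefore compared between columns and never with that of another gene, and no gene lengths were used here. Muscle, macrophage and other cell type markers were not analysed here, because no table used here pairs their identifiers with symbols, and so the tissue label was not checked. One column stood apart. Across the genes tested, the profile of back ST 1 lay at a median distance of 0.29 log2 units from the mean of the other back ST columns and of 0.18 from the mean of back WT, while the other 11 columns lay nearer to their own set. Its share of reads ambiguous between genes was 7.31%, against 4.70% and 4.61% in back ST 2 and 3 and 6.52% to 7.20% in back WT. The part of these differences between libraries in the results below was not tested.

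The lysosome genes differ in the motifs near their start, and 3 promoter windows that hold matches are shown. Each window runs from 250 bases before to 50 after the start used by RefSeq on the rat assembly GRCr8, and 7 of the 9 genes were matched to one in the table used here. Lgals3 and Ctsb were not matched. The E-box was searched as CACGTG, which reads the same on both strands, and the M-box as TCATGTGA or its reverse complement TCACATGA. These letters do not overlap in any window shown, and the matches are in capitals.
Lamp1, GRCr8 chr16:83075014-83075313, minus strand: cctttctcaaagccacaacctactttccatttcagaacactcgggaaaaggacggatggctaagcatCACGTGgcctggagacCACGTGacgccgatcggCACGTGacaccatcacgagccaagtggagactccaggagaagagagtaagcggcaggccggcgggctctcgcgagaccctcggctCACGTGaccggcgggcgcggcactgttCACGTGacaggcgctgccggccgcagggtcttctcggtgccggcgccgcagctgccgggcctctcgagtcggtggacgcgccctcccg
Ctsd, GRCr8 chr1:206968772-206969071, minus strand: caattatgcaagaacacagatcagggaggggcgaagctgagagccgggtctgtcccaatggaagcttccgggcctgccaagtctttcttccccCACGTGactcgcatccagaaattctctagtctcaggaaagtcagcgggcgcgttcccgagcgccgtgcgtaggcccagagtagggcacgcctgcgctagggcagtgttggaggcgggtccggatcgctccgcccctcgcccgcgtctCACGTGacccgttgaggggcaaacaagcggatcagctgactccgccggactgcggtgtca
Gpnmb, GRCr8 chr4:79340878-79341177, plus strand: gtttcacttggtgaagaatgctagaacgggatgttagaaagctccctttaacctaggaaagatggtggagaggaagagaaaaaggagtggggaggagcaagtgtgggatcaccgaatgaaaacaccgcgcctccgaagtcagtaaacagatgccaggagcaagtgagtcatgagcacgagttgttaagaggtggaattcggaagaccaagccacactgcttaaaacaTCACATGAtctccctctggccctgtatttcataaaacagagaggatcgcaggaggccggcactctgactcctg
The Lamp1 window held 5 E-boxes, the most in any of the 33469 rat promoter windows of this length and a number reached by 0.00299% of them. The Ctsd window held 2, one of which begins 10 bases before the start, and 0.52% of windows held 2 or more. At least 1 E-box was present in 6.42% of windows. Gpnmb held an M-box that begins 23 bases before its start, a motif found in 1.16% of windows. Cd63 held 1 of each motif, Ctss held an M-box that begins 3 bases after its start, and neither set of letters was present in the windows of Spp1 and Ctsk. A match is a stretch of letters and not a measured binding site.

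Leg muscle had more of 4 of the genes than back muscle. Over both codes, the level of Lgals3 was 3.44 times as high in the 6 leg columns as in the 6 back columns, that of Ctsk 2.32 times, that of Ctsb 1.5 times and that of Cd63 1.26 times, and these 4 passed the test. Gpnmb, Ctsd and Lamp1 did not. Of all genes tested, 22.6% passed the same test and 11.7% passed it as higher in leg. The same 4 had p under 0.05 before adjustment, beside 34.6% of all genes. The test was edgeR's quasi-likelihood test with p-values adjusted by the Benjamini-Hochberg method over all 10450 genes, and a gene was called at an adjusted p under 0.05. This comparison of the muscles over both codes was added after the data had been seen. CPM is a gene's share of the reads assigned to genes, expressed on the usual CPM scale. The CPM printed for single columns is after TMM scaling between libraries, and the filter used CPM before that scaling. Lgals3 entered the test only through its leg columns: 3 leg columns and no back column reached the 2.06 CPM that the filter asked of 3 columns. Its selection was therefore not independent of a leg difference, and its count as a call is no support. Bulk tissue cannot tell more cells of a type from more RNA per cell.

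Within a single code fewer genes passed. Among WT columns alone, 0 of the 7 genes were called, beside 13.9% of all genes, and 5 had p under 0.05 before adjustment, beside 28.9% of all genes. In 5 of the 7, Lgals3, Ctsb, Ctsk, Lamp1 and Cd63, every leg WT column lay above every back WT column, which held for 18.6% of all genes. Among ST columns alone, Ctsb was called, 1 of 7 beside 8.23% of all genes, 3 had p under 0.05 before adjustment, beside 22.9%, and in Lgals3 alone did every leg column exceed every back column, beside 12.4%. The median log2 difference of the 7 genes, leg over back, was 0.56 in WT columns and 0.26 in ST columns, where the medians of all genes were 0.00 and -0.01. Apart from the calls, each of these counts and medians includes Lgals3. It passed the filter only through leg columns, so its part in them is no support for a difference.

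**Figure D1:**
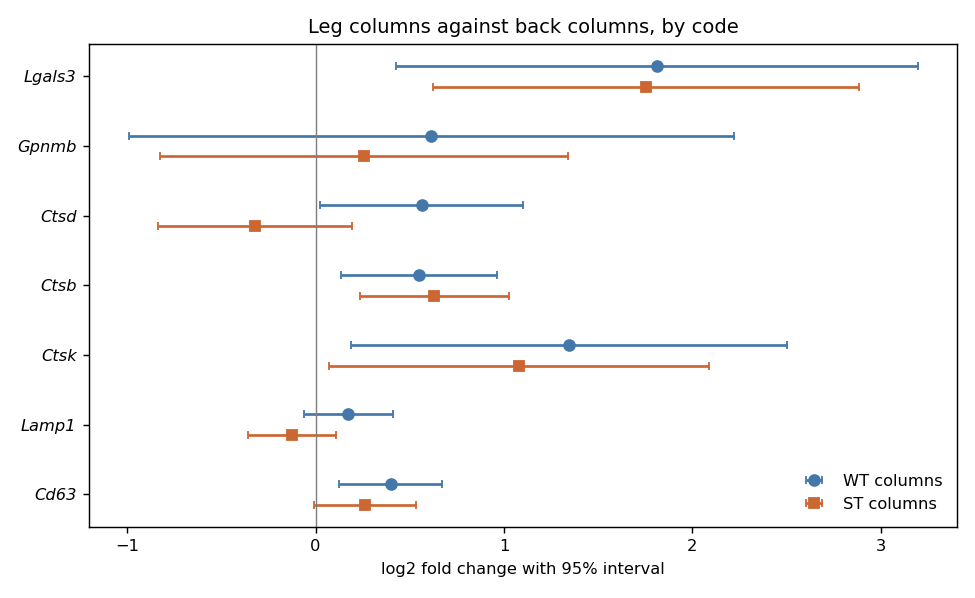
Log2 fold change of leg over back columns for the 7 tested genes, with 95% intervals, separately for WT columns (circles) and ST columns (squares), 3 columns a set. The points of Lgals3, Ctsk, Ctsb, Gpnmb and Cd63 lie to the right of 0 with both codes, and of these the intervals of Gpnmb and Cd63 reach 0 in at least 1 code. The points of Ctsd and Lamp1 lie to the right in WT columns and to the left in ST columns.

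Between ST and WT columns, none of the 7 genes was called in either muscle. In back muscle 7 of 7 had a positive log2 difference, ST over WT, with a median of 0.63 against 0.01 for all genes, of which 51.3% were positive. The edgeR test called 3.78% of all genes there. Before adjustment Gpnmb and Ctsd had p under 0.05, 2 of 7 beside 22.9% of all genes, and in Ctsd and Lamp1 every back ST column exceeded every back WT column, beside 11.8%. In leg muscle the test called 0.0766% of all genes. The log2 difference was positive in 5 of the 7 and negative in Ctsd and Lamp1, with a median of 0.37 against 0.01 for all genes. Gpnmb and Ctsb had p under 0.05 before adjustment, 2 of 7 beside 14.6%, and in Gpnmb alone every ST column exceeded every WT column, beside 12.3%. Gpnmb is among the genes counted in both muscles, but it passed the filter only through ST columns. Its place in these counts is therefore no support for a difference.

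The back result depended on back ST 1, the column that lay nearest to back WT. Without it, with 2 ST columns left, Gpnmb, Ctsd and Lamp1 were called by edgeR, with adjusted p of 0.00126, 0.00715 and 0.0478, and 2336 genes passed in place of 395. The number of genes tested in that fit is not given here, so no share stands beside the 2336. Back ST 1 had the lowest back ST level of Gpnmb, Ctsd and Lamp1, so leaving it out raised their ST over WT differences. Their calls without it are therefore no support for a difference. In the main fit Gpnmb also passed the filter only through ST columns. Leaving out any other back column gave 30 to 87 genes and called none of the 7. Scaling by library totals alone, without TMM, moved the median of all genes by 0.18 to 0.23 log2 units toward ST within a muscle and toward leg between muscles, and it turned the sign of the small leg ST over WT differences of Ctsd and Lamp1.

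**Figure D2:**
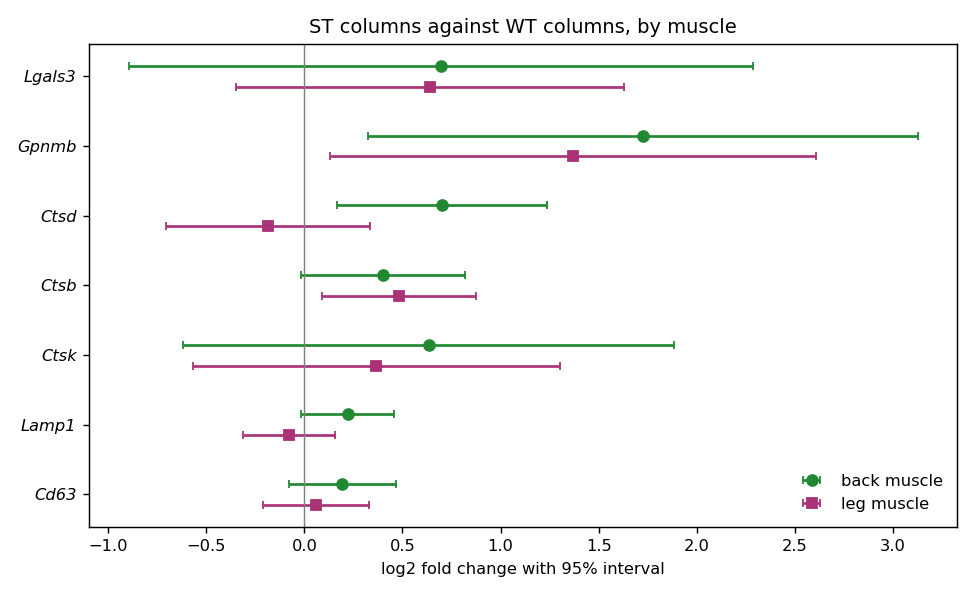
Log2 fold change of ST over WT columns for the 7 tested genes, with 95% intervals, in back muscle (circles) and leg muscle (squares), 3 columns a set. Gpnmb lies farthest to the right in both muscles, and the Ctsd and Lamp1 points lie on opposite sides of 0 in the 2 muscles.

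Whether the ST over WT difference itself differed between leg and back was tested as an interaction. It was called for 0 of the 7 genes by edgeR, beside 0% of the 10450 genes, and 1 of the 7, Ctsd, had p under 0.05 before adjustment, beside 10.3% of all genes. DESeq2 called 59 genes for this difference. They included none of Ctsd, Ctsb, Lamp1 and Cd63, and it gave no adjusted p for Lgals3, Gpnmb and Ctsk.

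**Figure D3:**
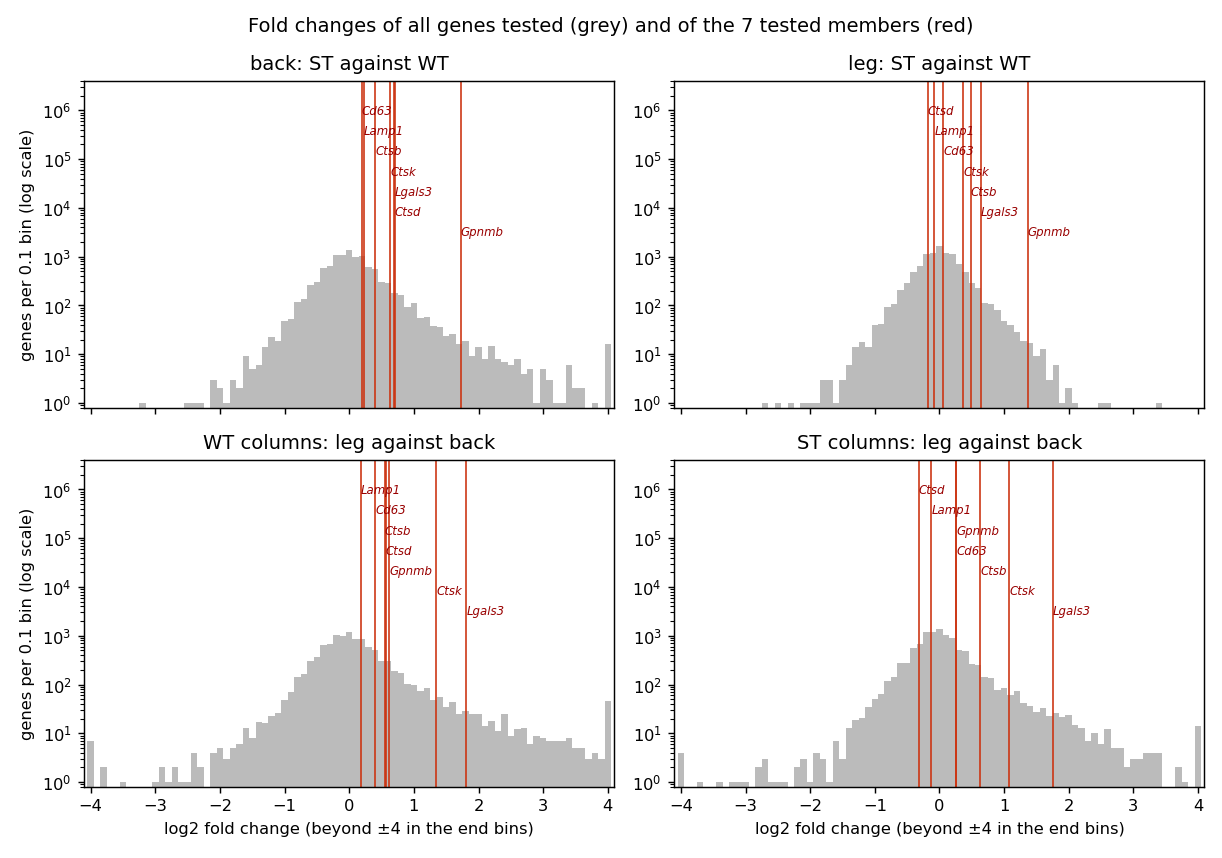
Number of genes per 0.1 of log2 fold change (log scale, grey) for the 10450 genes tested in each of 4 comparisons, with red lines at the 7 genes described. Gpnmb lies in the right tail in both ST against WT panels, and Lgals3 and Ctsk in both leg against back panels.

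Spp1 encodes osteopontin, a secreted ligand of integrins and CD44 that macrophages make in wounds and around implants. It had 1 read in back ST 3, 1 in leg ST 3 and 1 in leg WT 3, and 0 reads in the other 9 columns. A count of 0 allows up to 3 reads, which in these columns is 0.462 to 0.945 CPM and covers counting error only. No column exceeded that limit, and no difference in Spp1 was detectable at this depth.

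Lgals3 encodes galectin-3, a lectin that binds glycans on cell surfaces and on damaged lysosomes and is abundant in macrophages. Back WT held 0.939, 0.531 and 0 CPM (4, 3 and 0 reads) and back ST 0.656, 1.12 and 0.958 CPM (4, 4 and 5 reads). Leg WT held 2.68, 1.39 and 1.65 CPM (13, 5 and 9 reads) and leg ST 1.54, 3.41 and 4.59 CPM (10, 14 and 19 reads). All 6 leg columns lay above all 6 back columns, which was so in 3.6% of all genes, and the codes overlapped within each muscle. Lgals3 passed the filter only through leg columns, so this separation is no support for a difference. Over both codes the log2 difference of leg over back was 1.78 ± 0.42 (SE), with an adjusted p of 0.0067 by edgeR. In ST columns alone it was 1.75 ± 0.53 (SE; adjusted p by edgeR 0.054) and in WT columns alone 1.81 ± 0.65 (adjusted p by edgeR 0.0769). The ST over WT difference was 0.70 ± 0.75 in back and 0.64 ± 0.46 in leg, with adjusted p by edgeR of 0.632 and 0.556.

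Gpnmb encodes a membrane glycoprotein that rises in macrophages under lysosomal load and is a known target of MITF, and its window above holds the M-box. Back WT held 0.469, 1.77 and 0.315 CPM (2, 10 and 1 reads), and back ST 0.656, 4.74 and 4.98 CPM (4, 17 and 26 reads). Back ST 1 lay within the range of back WT, and the other 2 back ST columns lay above it. Leg WT held 1.85, 1.11 and 1.47 CPM (9, 4 and 8 reads) and leg ST 3.23, 4.14 and 4.59 CPM (21, 17 and 19 reads), with no overlap. ST over WT was 3.31-fold in back (95% interval 1.25 to 8.73) and 2.58-fold in leg (1.09 to 6.09). The adjusted p-values by edgeR were 0.134 and 0.296, and unadjusted 0.0191 and 0.0326. The leg difference lay at percentile 99.5 of all genes and the back difference at percentile 98.6. No column of either WT set reached the filter's 2.06 CPM, so Gpnmb entered the test through ST columns, 2 of back and 3 of leg, and its place among the tested genes is not independent of this difference. Fitted on the 6 leg columns alone, edgeR called it, with an adjusted p of 0.0256 among 694 genes called. For the same reason that call is no support for a difference. Leg and back did not differ beyond the spread, with a fold of 1.35 over both codes (0.69 to 2.65).

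Among the proteases, Ctsb encodes cathepsin B, a cysteine protease found in the lysosomes of most cells. Its level was 26.5, 27.3 and 23.3 CPM in back WT (113, 154 and 74 reads) and 30.8, 46.0 and 27.0 CPM in back ST (188, 165 and 141 reads). It was 45.5, 33.6 and 34.1 CPM in leg WT (221, 121 and 186 reads) and 45.2, 50.2 and 63.8 CPM in leg ST (294, 206 and 264 reads). Back ST 2 was the one back column in the leg range. Over both codes leg exceeded back by 0.59 ± 0.13 log2 units (SE; adjusted p by edgeR 0.00564). The difference was of like size in WT columns, 0.55 ± 0.20 (adjusted p by edgeR 0.0743), and in ST columns, 0.63 ± 0.19 (adjusted p by edgeR 0.0489). That last call was lost on leaving out any of back ST 1, back ST 3, leg ST 2 and leg ST 3, with adjusted p by edgeR of 0.0889 to 0.236. ST over WT was 1.32-fold in back (95% interval 0.99 to 1.77) and 1.40-fold in leg (1.06 to 1.83), with adjusted p by edgeR of 0.237 and 0.252.

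Ctsk encodes cathepsin K, the collagen-degrading protease of osteoclasts, which multinucleated giant cells and some fibroblasts also make. Back WT held 1.64, 1.24 and 2.52 CPM (7, 7 and 8 reads) and back ST 0.820, 5.30 and 2.68 CPM (5, 19 and 14 reads). Back ST held both the lowest and the highest back value. Leg WT held 5.15, 3.88 and 4.03 CPM (25, 14 and 22 reads) and leg ST 3.85, 4.38 and 9.18 CPM (25, 18 and 38 reads). Leg ST 3 stood above the rest, and back ST 2 was again the back column within the leg range. Leg exceeded back by 1.21 ± 0.36 log2 units over both codes (SE; adjusted p by edgeR 0.0238). That call was lost, with adjusted p by edgeR of 0.0536 to 0.0729, on leaving out any of back WT 1, back WT 2, leg ST 3 and leg WT 1. The ST over WT differences, 0.63 ± 0.59 in back and 0.37 ± 0.44 in leg, were about as large as their errors, and each changed sign without 1 column, back ST 2 or leg ST 3.

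Ctsd encodes cathepsin D, the main aspartic protease of lysosomes, and its window holds 2 E-boxes. Back WT held 20.9, 15.2 and 20.8 CPM (89, 86 and 66 reads) and back ST 22.1, 32.4 and 37.6 CPM (135, 116 and 196 reads). The back sets did not overlap, with back ST 1 just above the highest WT column. Leg WT held 36.8, 16.4 and 28.8 CPM (179, 59 and 157 reads) and leg ST 22.3, 23.4 and 27.8 CPM (145, 96 and 115 reads). The leg ST columns all fell inside the range of leg WT. ST over WT was 1.63-fold in back (95% interval 1.12 to 2.36; adjusted p by edgeR 0.116) and 0.88-fold in leg (0.61 to 1.26; adjusted p by edgeR 0.787). Of the 7 genes Ctsd had the lowest interaction p, with a difference between the muscles of -0.89 ± 0.35 log2 units (SE), 0.0229 before adjustment and 0.404 after it by edgeR. Without back ST 1 the adjusted p of that difference was 0.0338 by edgeR, in a fit that called 662 genes. Back ST 1 was the lowest back ST column of Ctsd, so that call is no support. Without the filter on low counts the adjusted p of the difference was 0.0133 by edgeR, among 280 genes called.

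Ctss encodes cathepsin S, a protease of macrophages and dendritic cells that trims the invariant chain during antigen presentation. Its reads numbered 0, 1 and 1 in back WT, 1, 2 and 1 in back ST, 2, 2 and 2 in leg WT, and 3, 5 and 3 in leg ST. On the CPM scale the muscles overlapped, with back ST 2, at 0.558 CPM, above all 3 leg WT columns and leg ST 1. Most values were at or below the 3 reads that a count of 0 allows, only leg ST 2 exceeded it, and no fold is given.

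The membrane proteins had the deepest counts and varied least. Lamp1 encodes the major glycoprotein that lines lysosomes. Back WT held 134, 131 and 135 CPM (572, 742 and 427 reads) and back ST 138, 175 and 154 CPM (841, 628 and 804 reads), without overlap. Leg WT held 165, 148 and 138 CPM (803, 534 and 753 reads) and leg ST 137, 135 and 155 CPM (893, 556 and 642 reads), with overlap. From the lowest to the highest of the 12 columns the level of Lamp1 changed 1.33-fold. ST over WT was 1.17-fold in back (95% interval 0.99 to 1.37; adjusted p by edgeR 0.248) and 0.95-fold in leg (0.80 to 1.12; adjusted p by edgeR 0.802). Leg over back was 1.02-fold over both codes, with an interval of 0.91 to 1.14 that leaves out a change of the size seen for Ctsb.

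Cd63 encodes a tetraspanin of late endosomes, lysosomes and secreted vesicles. Back WT held 96.4, 92.0 and 102 CPM (411, 520 and 324 reads) and back ST 97.9, 136 and 98.9 CPM (597, 489 and 516 reads). Leg WT held 122, 143 and 118 CPM (593, 517 and 643 reads) and leg ST 132, 131 and 135 CPM (861, 539 and 558 reads). Every leg column lay above every back column except back ST 2, which exceeded 5 of the 6. Leg over back was 0.33 ± 0.09 log2 units over both codes (SE; adjusted p by edgeR 0.0152). It was 0.40 ± 0.13 in WT columns (adjusted p by edgeR 0.0503) and 0.26 ± 0.13 in ST columns (adjusted p by edgeR 0.232). The WT comparison was called under 4 of 12 alternatives, whose adjusted p by edgeR or DESeq2 ran from 0.0158 to 0.174. ST over WT was 1.14-fold in back (95% interval 0.95 to 1.38) and 1.04-fold in leg (0.86 to 1.25), with adjusted p by edgeR of 0.40 and 0.877.

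**Figure D4:**
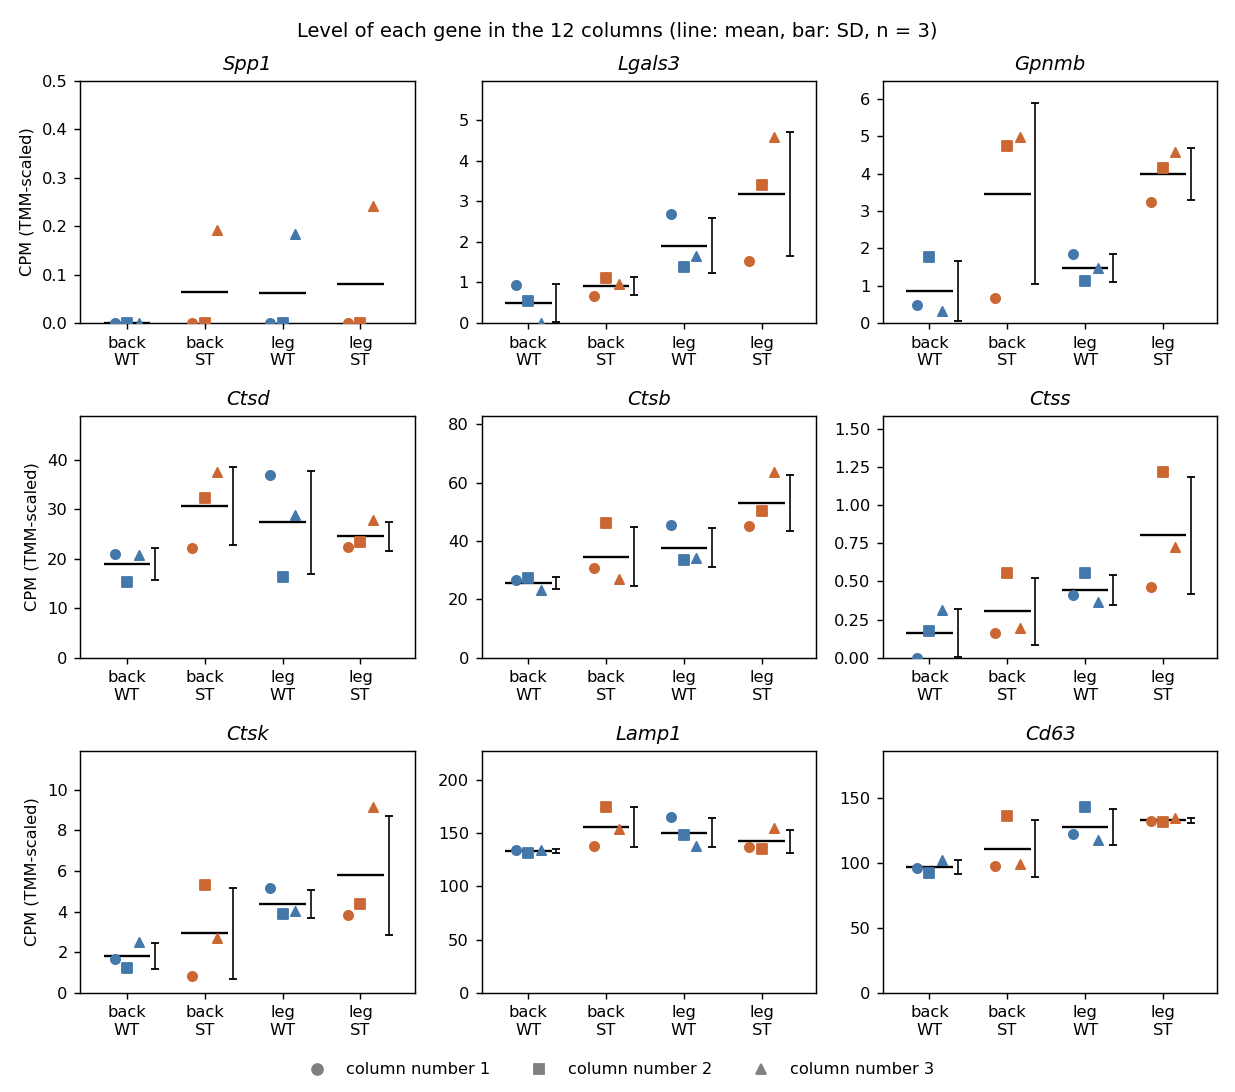
Scaled CPM of each of the 9 genes in the 12 columns, by muscle and code (blue WT, orange ST; marker shape gives the column number), each panel on its own axis from 0. Lines are means and bars SD of 3 columns (no bar for Spp1), and the back ST 1 circle lies within or near the back WT points for Gpnmb, Ctsd, Lamp1 and Cd63.

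The genes tended to be high and low in the same columns. Over the 12 columns, the 21 pairs of the 7 tested genes had positive Pearson correlations of log2 CPM, from 0.18 for Ctsd with Cd63 to 0.87 for Lgals3 with Ctsb, with a median of 0.60. After the mean of each set of 3 columns was removed, 19 of the 21 were positive, with a median of 0.49, and the highest was 0.87, for Ctsk with Lamp1. The pairs share libraries, depth and scaling, and the values are a description. No such value was computed for pairs of other genes, so they do not set the 7 genes apart. Relative to each gene's mean over the 12 columns, back WT 1, 2 and 3 and back ST 1 had all 7 genes below it, back ST 2 had 6 above it and leg ST 3 all 7. Back ST 3 had 3 above it, Gpnmb, Ctsd and Lamp1. The other 2 back ST columns thus also differed from each other: Ctsb, Ctsk and Cd63 were high in back ST 2 and not in back ST 3. No such counts were made over all genes tested, so they do not set the 7 genes apart. Lgals3 passed the filter only through leg columns and Gpnmb only through ST columns, so their part in these counts is no support. The 3 back WT columns and back ST 1 had TMM factors of 0.851 to 0.872, against 1.01 to 1.19 in the rest. The 50 most abundant genes held 55.7% to 56.9% of their gene reads, against 44.6% to 51.3% in the rest. The part of these library differences in the pattern was not tested.

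**Figure D5:**
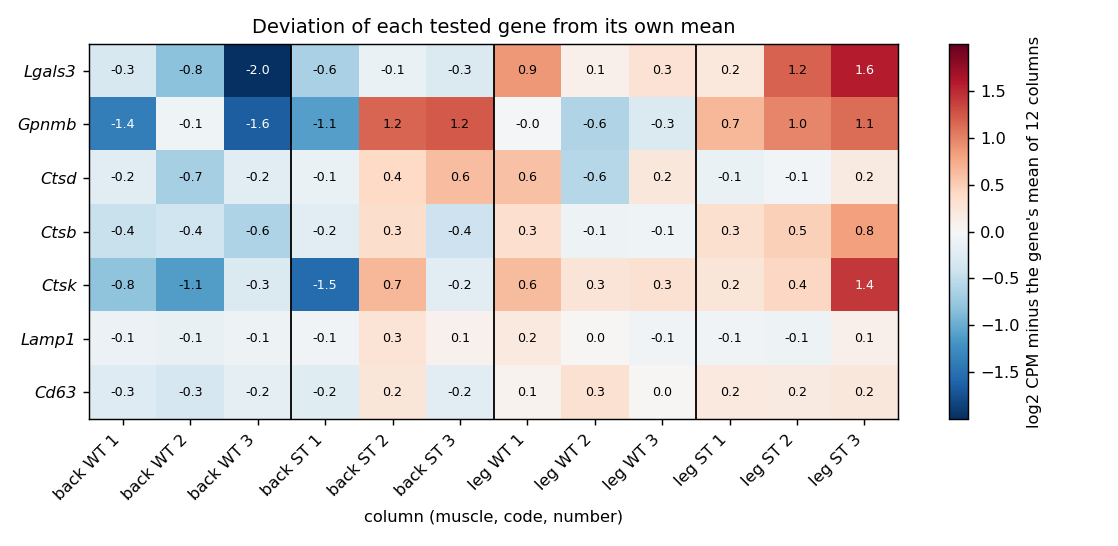
Difference between each tested gene's log2 CPM and its own mean over the 12 columns, with columns ordered by muscle and code (red above, blue below the mean). The 3 back WT columns and back ST 1 are below the mean throughout, and leg ST 3 is above it for all 7 genes. Lgals3 passed the low-count filter only through leg columns and Gpnmb only through ST columns.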

How the data were processed

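Total RNA of rat muscle was purified with Direct-zol and read from both ends, per the labels' protocols. The submitters' processing notes name STAR and DESeq2 without versions. The authors deposited raw counts per gene, 1 table a muscle, with mouse Ensembl identifiers. No source used here names the build, annotation or strand setting. Each table's 4 rows of read classes were left out of library sizes. Columns were tied to a muscle by name, and ST and WT kept as codes. Symbols came from the list that defines the 9 genes, and no other identifier was named. These genes and the lists were chosen with earlier results of these data known.

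One edgeR 4.0.16 quasi-likelihood fit (R 4.3.3) covered 12 columns as 4 sets, with TMM scaling, filterByExpr and Benjamini-Hochberg adjustment over all genes tested. SEs were derived from the F statistic. No 2 columns were identical. The fit was tested on simulated data. Alternatives included DESeq2 1.42.0, other scalings and filters, and leaving out each column. Those that changed the filter or the columns could test other numbers of genes, which are not given here. Their counts of calls therefore have no share of all genes beside them. The genes named are the 9 of the rule. The lists of other lysosome, macrophage and cell type genes were not tested. Promoter windows came from RefSeq, read with Python 3.11.15.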

Additional observations from a re-analysis of the deposited data

Results flagged for a closer look

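Each gene's level was checked within the 6 columns of a muscle, both codes together, for a highest or lowest column separated from the rest by more than 0.625 of the whole range. Of 26 sets of 6 columns, read shares included, 4 were picked out, and chance picks out about 1 in 20. Back ST 2 was high for Cd63, at 136 CPM, and for Ctsb, at 46.0 CPM. Leg ST 3 was high for Ctsk, at 9.18 CPM. Back ST 3 was high for Spp1, at 0.192 CPM, which is a single read.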

How the results depend on the processing

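In the comparison of leg with back over both codes, Ctsb and Cd63 were called under all 18 alternatives run, with adjusted p by edgeR or DESeq2 of at most 0.0188 and 0.0463, while Ctsk was called under 14 of 18. Lgals3, which passed the filter only through leg columns, had adjusted p of at most 0.0252 in the 17 that tested it, and this is no support for the difference. Scaling by library totals only left the 10450 genes tested unchanged. It called 789 genes (673 higher and 116 lower, against 250 and 145) for back ST against WT and 21 for leg ST against WT. For leg against back in WT columns it called 1649 genes, with 2 of interest, Ctsb and Cd63. In ST columns it called 1157 genes, with 2 of interest, Ctsb and Lgals3. That call of Lgals3 is likewise no support. That scaling also moved the split of calls to 1405 higher and 244 lower (778 and 672) for leg against back in WT columns and to 1024 and 133 (486 and 374) in ST columns, to 2701 and 380 (1223 and 1143) over both codes, and to 19 and 2 (5 and 3) for leg ST against WT. It gave 0.0062 for Ctsd and 0.11 for Lamp1 in leg ST against WT, and 0.086 for Lamp1 in leg ST against back ST, with signs turned.

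Without the low-count filter, every gene with any read was tested. That number is not given here, so no share of all genes stands beside the counts that follow. With no low-count filter, 1173 genes were called for back ST against WT, 503 for leg ST against WT, 1400 for leg ST against back ST and 280 for the interaction. Of the 7 genes it called 2 (Gpnmb and Ctsd), 1 (Gpnmb), 3 and 1 (Ctsd) in these, and 5 for leg against back in WT columns, where it called 1865 genes in all. Cd63 alone, 1 gene, was called there with 10 counts in 6 columns, where Lgals3 was not tested, and without the 50 most abundant genes, among 1380 and 1418 genes called. DESeq2 called 608, 82 and 59 genes for back ST against WT, leg ST against WT and the interaction, and in leg it gave no adjusted p for any of the 7. The 6 columns of a table alone gave 2 genes in back and 694, with Gpnmb the 1 of interest, in leg. In the main fit Gpnmb passed the filter only through ST columns, so this call is no support for a difference. The cause of these shifts was not tested.

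Leaving out 1 column at a time gave 30 to 2336 genes and 0 to 3 of the 7 for back ST against WT, 2 to 11 genes and none of the 7 for leg ST against WT, 696 to 1077 and 0 to 1 for leg against back in WT columns, 302 to 1328 and 0 to 3 in ST columns, 0 to 662 and 0 to 1 for the interaction, and 1860 to 2769 and 3 to 4 over both codes. The counts over both codes include Lgals3, as does that in ST columns without leg ST 1. The 3 for back ST against WT were Gpnmb, Ctsd and Lamp1, and the 1 for the interaction was Ctsd, all without back ST 1. In the main fit Lgals3 passed the filter only through leg columns and Gpnmb only through ST columns. Back ST 1 was the lowest back ST column of Gpnmb, Ctsd and Lamp1. The calls named here are therefore no support. Signs turned in values that were not called, and ranges over the left-out columns follow. Over both codes the log2 difference of Lamp1 ran from -0.016 to 0.061 and that of Ctsd from -0.0044 to 0.23. Gpnmb ran from -0.32 to 0.745 for leg ST against back ST. For ST against WT, Ctsk ran from -0.0056 to 1.155 in back, and in leg Ctsk ran from -0.10 to 0.62, Ctsd from -0.44 to 0.073 and Cd63 from -0.0039 to 0.14. The interaction ran from -0.68 to 0.35 for Lgals3, -1.57 to 0.14 for Gpnmb, -0.070 to 0.31 for Ctsb, -0.80 to 0.36 for Ctsk and -0.22 to 0.025 for Cd63.

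With the replicate number as a block within muscle, the same 10450 genes were tested. Of these, 442 were called in back, 10 in leg and 0 for the interaction, and none of the 7. The 6 same-numbered pairs of columns correlated at -0.099 to 0.048, and 1 of 6 ST columns correlated best with its own number, so the numbers were not taken as pairs.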
